A study of Mus musculus with 6 samples.

Results

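The genes described here are the hair keratins and the keratin-associated proteins, the building materials of the hair shaft. They were chosen by name alone, as every gene whose mouse symbol starts with Krtap and a digit together with the hair keratins of the type I series Krt31 to Krt36 and of the type II series from Krt81 upwards. This gave 70 of the 55487 genes measured, of which 12 were hair keratins (7 of type I and 5 of type II) and 58 were Krtap genes. A further type II keratin of the naming rule was not analysed here, so sums over type II cover 5 genes. Of the 70 genes, 62 were listed above 0 in at least 1 of 6 libraries, 26 reached 1 FPKM in at least 1 library, and 8 were at 0 in all. FPKM counts fragments per kilobase of transcript and scales them to the mapped fragments of a library, so that levels can be set side by side between genes.

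Messenger RNA came from epidermis of newborn mice at postnatal day 0, in 3 libraries labelled control and 3 labelled Znf750 cKO, for which Znf750_cKO is used here. Znf750 is written Zfp750 as a mouse gene symbol, and its product is a zinc finger protein that controls transcription as keratinocytes mature. The series title names its role in skin development. Back skin had been split with dispase, and the epidermal sheet was then broken up with trypsin, per the labels' protocols. How the knockout was made, any Cre driver, the controls' genotype and the mouse strain were not given in the sources used here. Nor is it stated that each library came from a separate animal. The p-values below therefore measure the spread between these libraries, which may be technical. The exact two-sided permutation test of 3 against 3 libraries cannot go below 0.1, and tests were run with limma across all genes instead.

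Hair keratins are intermediate filament proteins of the cortex and cuticle of hair and nail. A type I and a type II chain pair to form the filament, and late in shaft formation the keratin-associated proteins fill the space between filaments and cross-link them through their cysteines. Krtap proteins are grouped by composition into high-sulfur, ultra-high-sulfur and high glycine-tyrosine proteins. Families Krtap1 to Krtap3 are summed below for the first, and Krtap4, Krtap5 and Krtap9 for the second. Krtap6 to Krtap8 and Krtap19 to Krtap22 are summed for the third. Composition was not computed here. The other families, Krtap17 among them, were not assigned to a class, so the sums below may not cover a whole class. Follicles begin to form before birth in the mouse, and their cells can stay with the epidermis when it is lifted from the dermis.

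The genes sit in clusters. On GRCm38, 23 Krtap genes lie within chr11:99550130-99993994, followed by the 7 type I hair keratins within chr11:100011195-100105626. The 5 type II hair keratins lie within chr15:101459061-101550667. A further 25 Krtap genes lie within chr16:88610705-89571183, 5 genes of the Krtap5 family within chr7:142174535-142304594, 3 within chr10:77720599-77837252 and 2 Krtap28 genes within chr1:83041524-83061921.

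RefSeq start sites on GRCm38.p6 were found for 58 of the 70 genes. The 250 bases before the start are shown for 6 of them, 5 Krtap genes that carry the contrast in the data (the 3 Krtap3 neighbours, 1 high glycine-tyrosine gene and Krtap17-1, whose values went the other way) and the most abundant hair keratin, Krt32. Each is read 5′ to 3′ on the gene's own strand, which is the minus strand in all 6. Capitals mark the letters TATAA within the last 40 bases and, in Krt32, also the letters CTTTGAA. The stretches are, in the order printed, chr11:99566631-99566880, chr11:99556854-99557103, chr11:99550864-99551113, chr16:89487953-89488202, chr11:99993995-99994244 and chr11:100088270-100088519.
Krtap3-1: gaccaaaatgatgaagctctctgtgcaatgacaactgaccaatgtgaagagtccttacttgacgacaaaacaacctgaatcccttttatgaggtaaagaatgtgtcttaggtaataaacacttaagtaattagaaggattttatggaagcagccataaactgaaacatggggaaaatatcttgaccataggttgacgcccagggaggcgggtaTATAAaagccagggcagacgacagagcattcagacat
Krtap3-2: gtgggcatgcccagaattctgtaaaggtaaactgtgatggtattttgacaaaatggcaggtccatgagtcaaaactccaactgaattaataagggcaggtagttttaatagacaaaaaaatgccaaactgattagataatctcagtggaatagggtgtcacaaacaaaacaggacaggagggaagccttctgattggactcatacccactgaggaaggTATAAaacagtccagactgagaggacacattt
Krtap3-3: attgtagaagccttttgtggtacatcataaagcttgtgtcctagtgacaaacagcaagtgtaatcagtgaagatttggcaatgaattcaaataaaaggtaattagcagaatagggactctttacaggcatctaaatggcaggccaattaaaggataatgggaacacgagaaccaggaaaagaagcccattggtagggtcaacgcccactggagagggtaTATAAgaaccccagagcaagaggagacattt
Krtap8-1: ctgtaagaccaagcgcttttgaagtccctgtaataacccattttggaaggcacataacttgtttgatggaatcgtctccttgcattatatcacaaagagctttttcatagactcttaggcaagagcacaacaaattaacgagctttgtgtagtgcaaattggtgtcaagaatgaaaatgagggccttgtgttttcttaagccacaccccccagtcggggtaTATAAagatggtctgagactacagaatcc
Krtap17-1: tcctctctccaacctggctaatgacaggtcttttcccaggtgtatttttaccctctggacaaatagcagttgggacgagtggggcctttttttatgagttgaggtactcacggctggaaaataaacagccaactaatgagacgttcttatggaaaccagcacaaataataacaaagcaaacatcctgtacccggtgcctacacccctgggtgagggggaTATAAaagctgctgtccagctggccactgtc
Krt32: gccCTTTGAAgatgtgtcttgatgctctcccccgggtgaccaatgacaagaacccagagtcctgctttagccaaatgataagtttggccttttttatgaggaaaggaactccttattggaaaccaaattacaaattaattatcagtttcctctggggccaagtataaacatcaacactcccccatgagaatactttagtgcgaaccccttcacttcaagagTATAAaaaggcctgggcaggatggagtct
The letters TATAA, the core of the TATA box, were searched on the sense strand within the last 40 bases. They stood in 36 of 51 Krtap promoters (70.6%) and 3 of 7 hair keratin promoters (42.9%), against 4.23% of 32851 promoters in the table. The letters CTTTGAA, a binding motif of the LEF and TCF factors, were searched on both strands. They stood in 4 of 7 hair keratin promoters (57.1%: Krt31, Krt32, Krt33b and Krt34), in 7 of 51 Krtap promoters (13.7%) and in 4.46% of all. The letters CCNNAGGC, a motif reported for human ZNF750, were also searched on both strands. They stood in 2 of 51 Krtap promoters (3.92%: Krtap5-2 and Krtap20-2), in 0 of the 7 hair keratin promoters and in 20.4% of all. Median GC content was 40.4% in Krtap promoters, 43.2% in hair keratin promoters and 52.4% in all. In pairwise global alignments with gaps, the Krtap3-2 stretch had identical bases in 54.9% of columns with Krtap3-1, 55.4% with Krtap3-3 and 52.1% with Krtap17-1. A match of letters is a description and no binding site, and a missing match says only that the letters are not in this window.

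Zfp750 itself was at 44.8, 32.0 and 34.9 FPKM in control replicates 1, 2 and 3, and at 0.99, 0.83 and 1.47 FPKM in Znf750_cKO replicates 1, 2 and 3. It fell with a log2 change of -4.19 on the log2(FPKM + 1) scale used for all changes here (SE 0.17, limma adjusted p = 4.6e-05). Steps in the low values place the depth at 21.5 to 35.4 M reads (megareads) per library, so that 1 read on a transcript of 1 kilobase stands for 0.0314 to 0.0517 FPKM. Of 7 markers of the epidermis between follicles, the basal keratin Krt5 was at 6275 to 6973 FPKM over the 6 libraries, and 1 of the 7, Ivl, changed. Of 13688 tested genes 577 (4.22%) changed, 152 upwards and 425 downwards, and 248 rose and 265 fell after rescaling by median ratios.

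Krtap transcripts were lower in the Znf750_cKO libraries, while hair keratin transcripts were lower by a smaller factor. Of the 58 Krtap genes, 50 were above 0 in at least 1 library. Of these, 35 were at 0 in all 3 Znf750_cKO libraries and above 0 in at least 1 control. Of all genes above 0 in at least 1 library, 8.02% did so. Summed over the 58 Krtap genes, the level was 58.11, 73.59 and 25.56 FPKM in control and 11.85, 14.92 and 12.39 FPKM in Znf750_cKO. The Znf750_cKO mean was 24.9% of the control mean (13.1 ± 1.64 against 52.4 ± 24.5 FPKM, SD, n = 3). Summed over the 12 hair keratins, it was 16.49, 15.49 and 11.52 FPKM against 7.77, 9.98 and 6.21 FPKM, or 55.1% (7.99 ± 1.89 against 14.5 ± 2.63). Neither pair of sums overlapped between the groups. For the hair keratins this rested on Krt32, at 7.02, 6.00 and 8.56 FPKM in control and 4.31, 5.76 and 2.42 in Znf750_cKO. With Krt32 left out, control replicate 3 had the lowest hair keratin sum of the 6 libraries. Control replicate 3 was the lowest control library in both sums and in 51 of the 70 genes. In bulk RNA, fewer cells of a type and less RNA per cell cannot be told apart.

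**Figure D1:**
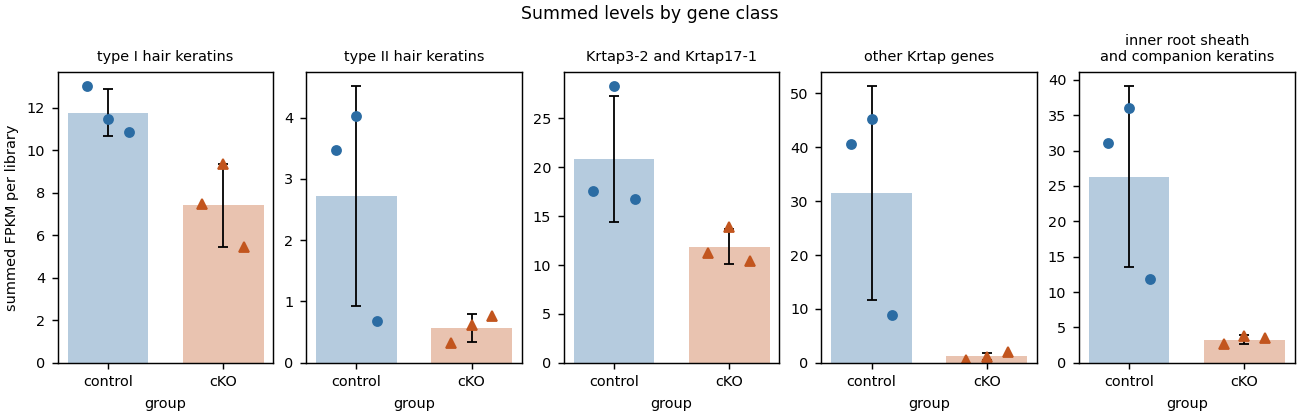
Summed FPKM per library (vertical axis, a scale of its own in each panel) in control and Znf750_cKO (cKO), with points for libraries, bars for group means and error bars for the SD (n = 3). Type I hair keratins, Krtap3-2 with Krtap17-1, the other Krtap genes and the inner root sheath keratins have no overlap between groups, while control replicate 3 of the type II keratins lies among the Znf750_cKO libraries.

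A pair of Krtap genes held most of what remained. Krtap3-2 and Krtap17-1 together made up all but 0.59, 1.05 and 1.94 FPKM of the Krtap sum in Znf750_cKO replicates 1, 2 and 3. The other 56 Krtap genes, a set taken after the values were seen, summed to 40.53, 45.28 and 8.81 FPKM in control. The mean of these 56 was 31.5 ± 19.8 FPKM in control and 1.19 ± 0.69 in Znf750_cKO, a 26.4-fold difference of means. For the 50 of them with a single annotated transcript, this corresponds to an estimated 789, 643 and 143 reads in control and 18, 14 and 38 reads in Znf750_cKO.

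Fewer Krtap genes were detected in Znf750_cKO. Krtap genes above 0 numbered 47, 46 and 29 in control and 6, 10 and 10 in Znf750_cKO. Hair keratins above 0 numbered 12, 12 and 11 in control and 12, 10 and 10 in Znf750_cKO. Genes of either kind at 1 FPKM or more numbered 23, 21 and 4 in control and 3, 4 and 4 in Znf750_cKO, so by that count control replicate 3 stood with the Znf750_cKO libraries. The genes nearest to the limit of 1 FPKM in their highest library were Krtap6-1 (1.13) and Krt83 (1.06) above it and Krt31 (0.98) and Krtap10-10 (0.94) below it.

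In 30 of the 62 genes above 0 anywhere, 26 Krtap genes and 4 hair keratins, every control library was higher than every Znf750_cKO library. Of all 35621 genes above 0 anywhere, 10.6% behaved so. The opposite held for 1 gene, Krtap17-1, against 4.33% of genes. Among genes of like level, the 51 with a control mean of 0.1 to 5 FPKM, the counts were 27 and 1, where the shares over 13030 genes in that range were 13.8% and 2.95%. In 19 of the 62 genes, all Krtap, the level was 0 in every Znf750_cKO library and above 0 in every control library. Of all genes above 0 anywhere, 0.424% did so. In the range of 0.1 to 5 FPKM these were 18 of 51 genes, against 0.783%. At 0 in every Znf750_cKO library but above 0 in at least 1 control library were 35 of the 62 genes, against 8.02%, and 29 of those 51, against 4.85%. Without control replicate 3 the 30 became 49 and the 19 became 31. Of the 62 genes above 0 anywhere, 57 had a lower mean in Znf750_cKO and 4 a higher one. Next to Krtap17-1 the higher ones were Krt84, Krtap13 and Krtap29-1, which stayed under 1 FPKM and did not separate the groups. Of the 27429 genes above 0 in at least 3 libraries, 57.5% had a log2 change below 0. Of the 13688 tested genes it was 62.2%, and 47.2% after rescaling by median ratios.

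**Figure D2:**
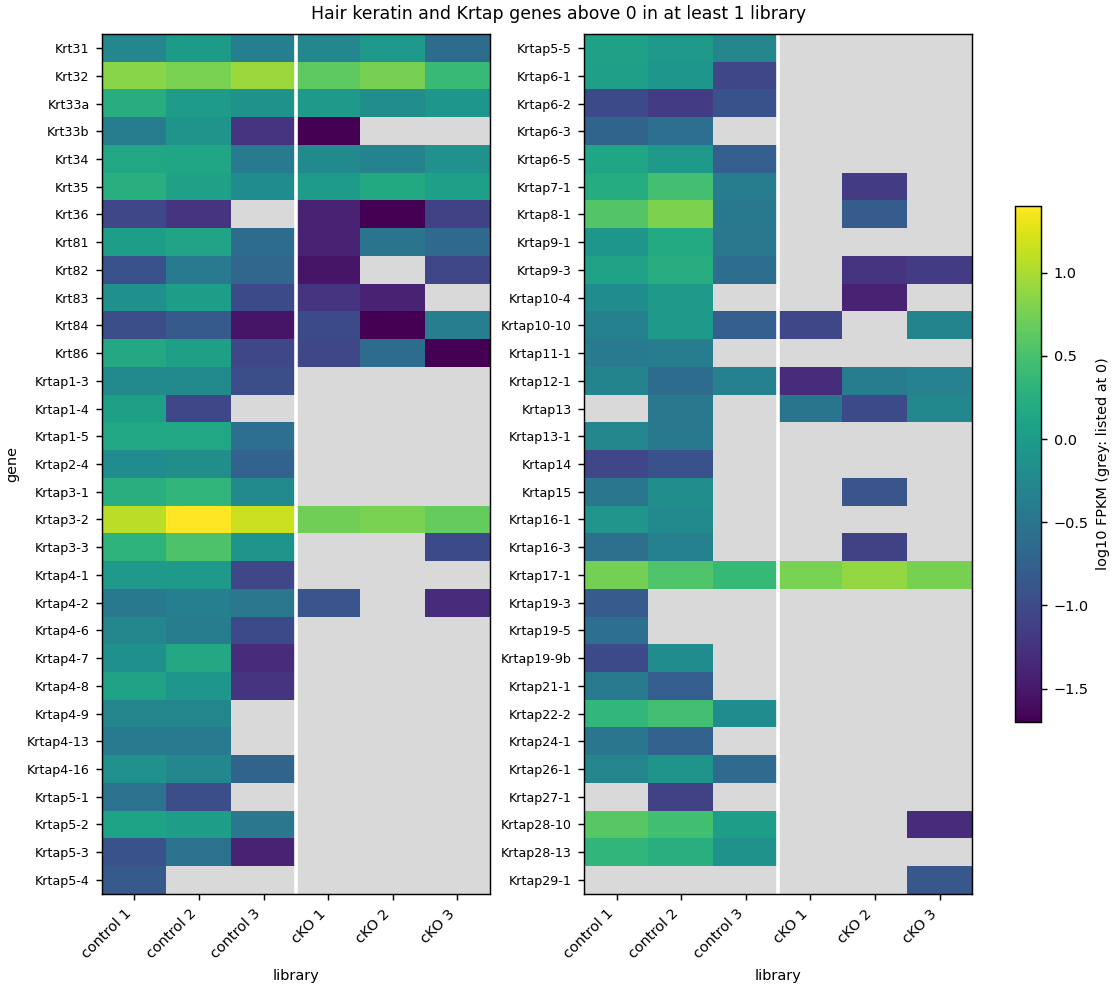
Level of each of the 62 genes above 0 in at least 1 library (rows, by family number, in a left and a right panel) in the 6 libraries (columns), coloured by log10 FPKM, with grey for a gene listed at 0. Krtap rows are mostly coloured in control replicates 1 and 2, darker or grey in control replicate 3 and mostly grey in Znf750_cKO, while Krt31, Krt32, Krt33a, Krt34 and Krt35 are coloured in all 6.

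Among the high-sulfur families, which cross-link the keratin filaments of the cortex, the 7 genes of Krtap1 to Krtap3 summed to 19.47, 33.18 and 16.33 FPKM in control and 5.28, 5.95 and 4.70 in Znf750_cKO. Krtap3-2 (ENSMUSG00000069721, chr11:99555823-99556853) was the most abundant Krtap gene in control and stood below Krtap17-1 in every Znf750_cKO library, at 11.90, 24.80 and 14.36 FPKM in control and 5.28, 5.95 and 4.6 in Znf750_cKO. Every control library was above every Znf750_cKO library, and Znf750_cKO kept a clear level in all 3. Krtap3-2 fell from 17 ± 6.85 to 5.28 ± 0.68 FPKM, 3.23-fold (log2 change -1.46 with SE 0.25, limma adjusted p = 0.025, and 0.035 with the replicate block). In the 6 leave-one-out fits it passed in 2, without control replicate 1 (0.036) or 2 (0.031), and the other 4 gave 0.061 to 0.11. The neighbour on each side was near or at 0 in Znf750_cKO. Krtap3-1 was at 1.74, 2.21 and 0.59 FPKM in control and listed at 0 in all 3 Znf750_cKO libraries. Krtap3-3 was at 2.03, 3.38 and 0.81 FPKM in control against 0, 0 and 0.10 in Znf750_cKO. Krtap3-3 shares 36.7% of its 100-base stretches with Krtap3-2, so the split of reads between that pair is an estimate. Krtap1-5 was at 1.42, 1.43 and 0.27 FPKM in control against 0 in Znf750_cKO, and Krtap1-4 at 1.14, 0.09 and 0 in control and also at 0. Of the 7 genes of Krtap1 to Krtap3, 6 were higher in every control library, against 10.6% of genes above 0 anywhere. Krtap1-4 overlapped between groups, through the 0 of control replicate 3.

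The ultra-high-sulfur families hold cuticle and cortex proteins rich in cysteine. The 16 genes of Krtap4, Krtap5 and Krtap9 summed to 10.44, 11.16 and 2.34 FPKM in control and 0.13, 0.06 and 0.12 in Znf750_cKO. Of the 16, 15 were above 0 anywhere. In 11 of these all control libraries were higher, against 10.6% of all genes above 0 anywhere. At 0 in every Znf750_cKO library and above 0 in at least 1 control library were 13, against 8.02%. The Krtap5 family, proteins of the cuticle encoded on chromosome 7, summed to 2.98, 2.40 and 0.89 FPKM in control and to 0 in all 3 Znf750_cKO libraries. Its leading genes were Krtap5-2 at 1.24, 1.05 and 0.34 FPKM in control and Krtap5-5 at 1.17, 0.95 and 0.51. Both were present in each control library, with control replicate 3 lowest. On chromosome 11, Krtap4-7 was at 0.72, 1.47 and 0.05 FPKM in control, Krtap4-8 at 1.22, 0.84 and 0.06, and Krtap9-1 at 0.85, 1.56 and 0.35, each with 0 in Znf750_cKO. Krtap9-3 kept traces, with 1.23, 1.69 and 0.26 FPKM in control and 0, 0.06 and 0.07 in Znf750_cKO. Krtap4-2 had even control values of 0.36, 0.43 and 0.34 FPKM, against 0.13, 0 and 0.05.

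The high glycine-tyrosine proteins are small proteins of the cortex matrix. The 16 genes of Krtap6 to Krtap8 and Krtap19 to Krtap22 are all on chromosome 16. They summed to 11.41, 14.90 and 1.79 FPKM in control and to 0, 0.23 and 0 in Znf750_cKO. Krtap8-1 (ENSMUSG00000059632, chr16:89487379-89487952) was at 3.77, 6.07 and 0.36 FPKM in control and 0, 0.16 and 0 in Znf750_cKO, or an estimated 50.9, 62.0 and 4.0 reads against 0, 2.0 and 0. The groups did not overlap, but control replicate 3 lay closer to the Znf750_cKO libraries than to the other controls. Krtap7-1 was at 1.68, 2.94 and 0.41 FPKM in control and 0, 0.07 and 0 in Znf750_cKO. Krtap22-2 was at 2.24, 2.96 and 0.64 FPKM in control against 0 in Znf750_cKO, where a count of 0 allows up to 3 reads, or 0.319, 0.426 and 0.490 FPKM in replicates 1, 2 and 3 (counting error only). The lowest control value of Krtap22-2 was therefore above that limit in each Znf750_cKO library, though it rests on an estimated 4 reads. Krtap6-5 and Krtap6-1 were at 1.38, 0.94 and 0.17 FPKM and at 1.13, 0.84 and 0.09 FPKM in control, with 0 in Znf750_cKO. Of the 16 genes, 5 were at 0 in all 6 libraries. In 6 of the other 11 every control library was higher, against 10.6% of all genes above 0 anywhere.

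Of the remaining 19 Krtap genes, 17 were above 0 anywhere, 14 with a lower mean in Znf750_cKO and 3 with a higher one. Of these 3, only Krtap17-1 separated the groups. In 3 of the 17 every control library was higher, against 10.6% of all genes above 0 anywhere. The 19 genes, Krtap17-1 included, summed to 16.79, 14.35 and 5.10 FPKM in control and 6.44, 8.68 and 7.57 in Znf750_cKO. The Znf750_cKO mean was 62.6% of control, and control replicate 3 lay below every Znf750_cKO library. Krtap28-10 (ENSMUSG00000100190, chr1:83041524-83042480) was at 3.98, 2.93 and 1.07 FPKM in control and 0, 0 and 0.05 in Znf750_cKO. It fell (log2 change -1.76 with SE 0.31, limma adjusted p = 0.025), but entered the test only through its control level, lost the call with the replicate block (0.051) and without a level filter (0.0504), and in the 6 leave-one-out fits passed only without control replicate 3 (0.0098, others 0.060 to 0.11). Its neighbour Krtap28-13 was at 2.21, 1.77 and 0.77 FPKM in control against 0 in Znf750_cKO. Krtap16-1, the direct neighbour of Krtap17-1, was at 0.83, 0.60 and 0 FPKM in control against 0 in Znf750_cKO.

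Krtap17-1 (ENSMUSG00000078252, chr11:99993234-99993994) was the only one of the 70 genes with all Znf750_cKO libraries above all controls. It was at 5.68, 3.51 and 2.39 FPKM in control against 5.98, 7.92 and 5.85 in Znf750_cKO, from an estimated 37.0 to 106.8 reads in control and 89.1 to 140.1 reads in Znf750_cKO. Control replicate 1 came close to the lowest Znf750_cKO library. The difference of 3.86 ± 1.67 against 6.58 ± 1.16 FPKM did not pass (log2 change 0.69 with SE 0.25, limma adjusted p = 0.17). The 3 genes on chromosome 10, which overlap the gene Tspear, summed to 1.61, 2.10 and 0.63 FPKM in control and 0.14, 0.45 and 0.97 in Znf750_cKO, and none of them separated the groups. Of these, Krtap12-1 was at 0.50, 0.25 and 0.46 FPKM in control and 0.05, 0.41 and 0.47 in Znf750_cKO.

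**Figure D3:**
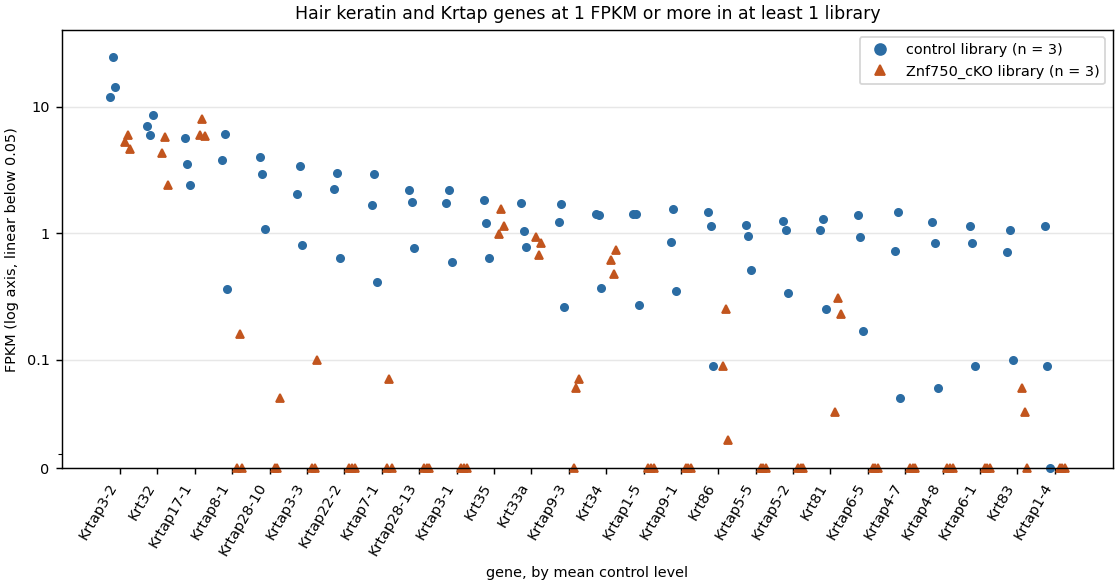
FPKM in each library (vertical log axis, linear below 0.05) of the 26 genes that reached 1 FPKM in at least 1 library, ordered by mean control level, with circles for control and triangles for Znf750_cKO. Krtap17-1 is the gene with all triangles above all circles, and most other Krtap genes have their triangles at 0 or at no more than 0.16 FPKM.

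The type I hair keratins were at a larger share of their control level than the type II. The 7 type I genes summed to 13.02, 11.47 and 10.84 FPKM in control and 7.45, 9.36 and 5.45 in Znf750_cKO (63.0% of control, 7.42 ± 1.96 against 11.8 ± 1.12). The 5 type II genes summed to 3.47, 4.02 and 0.68 FPKM in control and 0.32, 0.62 and 0.76 in Znf750_cKO (20.8%, 0.57 ± 0.22 against 2.72 ± 1.79). Type I sums did not overlap between groups, and type II sums did, since control replicate 3 lay below Znf750_cKO replicate 3. The separation of the type I sums rested on Krt32. With Krt32 left out, control replicate 3 had the lowest type I sum of the 6 libraries. The difference between the types was not tested.

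Krt32 (ENSMUSG00000046095, chr11:100080848-100088226), a type I keratin of the hair cuticle, was the most abundant hair keratin. It was at 7.02, 6.00 and 8.56 FPKM in control and 4.31, 5.76 and 2.42 in Znf750_cKO. The groups did not overlap, with Znf750_cKO replicate 2 just under control replicate 2, and control replicate 3 was here the highest library. The difference did not pass (7.19 ± 1.29 against 4.16 ± 1.67 FPKM, log2 change -0.71 with SE 0.25, limma adjusted p = 0.16). Krt32 overlaps the gene model Gm11571, and it is not stated whether reads were separated by strand. Krt35, an early keratin of the shaft matrix and cuticle, was at 1.82, 1.2 and 0.64 FPKM in control and 0.99, 1.54 and 1.13 in Znf750_cKO, so that the groups lay within each other (log2 change 0.03 with SE 0.24, limma adjusted p = 0.97).

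The type I keratins of the cortex were divided. Krt33a was at 1.72, 1.04 and 0.78 FPKM in control and 0.94, 0.67 and 0.84 in Znf750_cKO, Krt34 at 1.42, 1.38 and 0.37 against 0.61, 0.48 and 0.73, and Krt31 at 0.54, 0.98 and 0.43 against 0.54, 0.89 and 0.25. In these 3 the groups overlapped. Krt33b was at 0.41, 0.81 and 0.06 FPKM in control and 0.02, 0 and 0 in Znf750_cKO, with no overlap. Krt36, a keratin of nail and tongue, stayed at or below 0.09 FPKM in every library.

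The type II keratins of the cortex, Krt81, Krt83 and Krt86, were lower in Znf750_cKO than in control replicates 1 and 2. Krt86 was at 1.48, 1.14 and 0.09 FPKM in control and 0.09, 0.25 and 0.02 in Znf750_cKO, and Krt81 at 1.05, 1.30 and 0.25 against 0.04, 0.31 and 0.23. Control replicate 3 lay within the range of the Znf750_cKO libraries for both. Krt83 was at 0.71, 1.06 and 0.10 FPKM in control and 0.06, 0.04 and 0 in Znf750_cKO, and the cuticle keratin Krt82 at 0.12, 0.37 and 0.21 against 0.03, 0 and 0.09, both without overlap. Krt84, a keratin of tongue papillae, was at 0.11, 0.15 and 0.03 FPKM against 0.10, 0.02 and 0.42. Krt81 shares 25.0% and Krt86 24.6% of its 100-base stretches with other genes of the cluster, so their separate levels are estimates. Of the 47 genes among the 70 that share under 5% with any other gene, 42 were above 0 somewhere. Of these, 21 were higher in every control library, against 10.6% of all genes above 0 somewhere. At 0 in all Znf750_cKO libraries and in no control library were 13, against 0.424%.

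The low levels limited the test. Of the 70 genes, 5 had 1 FPKM or more in at least 3 libraries and were tested (Krt32, Krt35, Krtap3-2, Krtap17-1 and Krtap28-10). Of these, 2 fell and 0 rose, where 3.1% of tested genes fell and 1.11% rose, and 5 genes are too few to set against that share. With the limit lowered to any value above 0 in at least 3 libraries, 45 of the 70 entered the fit. Of these, 19 were at 0 in every Znf750_cKO library and above 0 in every control library, so they entered through control alone and had to be lower, and nothing is read from a count or median over the 45. In that fit Krtap3-2 passed (limma adjusted p = 0.044) and Krtap28-10 did not (0.0504), where 0.726% of genes fell and 0.306% rose.

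With the same low limit and a pseudocount of 0.1 in place of 1, a setting taken after the values were seen, 9 of the 45 fell and 0 rose, where 1.09% of genes fell and 0.379% rose. These were Krtap28-10, Krtap28-13, Krtap22-2, Krtap3-1, Krtap5-5, Krtap3-3, Krtap3-2, Krtap5-2 and Krtap9-1, with limma adjusted p from 0.011 to 0.040. All of them but Krtap3-2 met the limit only through their control libraries, so that the count is a description and is not set against the shares of all genes. None of the 12 hair keratins passed there.

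Other genes of the hair follicle were taken from 4 lists. Regulators of the shaft lineage did not pass in either direction: of 14 tested, 0 rose and 0 fell. Limma gave 2 an unadjusted p under 0.05, where 21.3% of tested genes had one, and the median log2 change was 0.06. Of the 16 listed, 4 were higher in every Znf750_cKO library and 0 in every control library. Over all genes above 0 anywhere these shares were 4.33% and 10.6%. The 16 summed to 285.05, 250.58 and 286.20 FPKM in control and 288.84, 306.96 and 290.40 in Znf750_cKO, with a narrow gap between groups. Wnt10b, a ligand of the hair placode and matrix, was at 69.0 ± 10.6 FPKM in control and 77.6 ± 2.09 in Znf750_cKO (limma adjusted p = 0.48). Gata3, a transcription factor of the inner root sheath that is also made in epidermis, was at 54.0 ± 4.18 against 53.3 ± 3.19 FPKM (adjusted p = 0.95), a difference whose sign turned under median-ratio scaling. A p that misses the threshold does not show that these levels were alike.

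Structural and processing partners of the shaft proteins had a lower mean FPKM in 12 of 14 genes, tested or not. Of all tested genes 62.2% had a log2 change below 0, a share over fitted changes of higher genes and so not the same measure. Tchh and Mt4 had a higher mean. Of 10 tested, 1 rose and 0 fell, while limma gave 9 an unadjusted p under 0.05, where 21.3% of tested genes had one, and the median log2 change was -0.75. Partners that met the limit of 1 FPKM through control alone had to be lower, and these were not counted apart. The 9 and the median are therefore a description only. Trichohyalin, Tchh, a protein of the inner root sheath and medulla, was at 13.28, 16.43 and 12.93 FPKM in control and 109.59, 87.12 and 43.82 in Znf750_cKO. It rose (log2 change 2.33 with SE 0.34, limma adjusted p = 0.027), and in the 6 leave-one-out fits passed only without Znf750_cKO replicate 3 (0.0010). Mt4, a metallothionein of stratified epithelia, was at 3.28, 9.93 and 7.69 FPKM in control and 77.24, 105.86 and 27.41 in Znf750_cKO, with all Znf750_cKO libraries above all controls. Its log2 change of 3.06 (SE 0.64) had a limma adjusted p of 0.080, and 0.041 without Znf750_cKO replicate 3. Without replicate 3 of both groups 3 members of the list fell.

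Other partners, named after their values were seen, lay on the low side in Znf750_cKO. S100a3, a calcium-binding protein of the cuticle, was at 7.10, 8.74 and 3.34 FPKM in control and 3.47, 1.95 and 0.83 in Znf750_cKO (limma adjusted p = 0.16, and 0.046 with the replicate block). Padi3, which deiminates shaft and sheath proteins, was at 1.18, 0.96 and 0.42 FPKM in control and 0.15, 0.16 and 0.15 in Znf750_cKO. Control replicate 3 was the lowest control library for both, and for S100a3 it lay below Znf750_cKO replicate 1.

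Keratins of the inner root sheath and companion layer, which surround the growing shaft, were lower as well. Their 9 genes summed to 31.13, 36.03 and 11.83 FPKM in control and 2.61, 3.79 and 3.43 in Znf750_cKO, an 8.04-fold difference of means. All 9, tested or not, had a lower mean FPKM. Of all tested genes 62.2% had a log2 change below 0, which is not the same measure. Of 4 tested, 2 fell. Krt27 was at 7.11, 9.23 and 4.16 FPKM in control and 0.47, 0.68 and 0.60 in Znf750_cKO (log2 change -2.25 with SE 0.25, limma adjusted p = 0.0055). Krt71, its type II partner, was at 6.90, 9.46 and 3.63 FPKM against 0.38, 0.63 and 0.58 (log2 change -2.25 with SE 0.29, limma adjusted p = 0.0087). Both entered the test through their control level only. Krt27 passed in each of the 6 leave-one-out fits, and Krt71 had an adjusted p of 0.056 without Znf750_cKO replicate 1. All 4 tested genes fell without control replicate 3.

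Of 11 tested genes of follicle epithelium outside the shaft, 1 rose and 1 fell, and 2 rose after rescaling by median ratios. Limma gave 7 of them an unadjusted p under 0.05, where 21.3% of tested genes had one. In 3 every control library was higher and in 3 every Znf750_cKO library, against 10.6% and 4.33% of all genes above 0 anywhere. Lhx2, a transcription factor of early follicles, rose from 24.8 ± 2.36 to 43.3 ± 2.08 FPKM (log2 change 0.78 with SE 0.11, limma adjusted p = 0.011, and 0.055 without Znf750_cKO replicate 1). Krt79, a keratin of the follicle opening, fell from 348 ± 95.8 to 132 ± 13.9 FPKM (log2 change -1.35 with SE 0.21, limma adjusted p = 0.020), and in the 6 leave-one-out fits passed only without control replicate 3 (0.0034). Krt15 and Krt17, the most abundant genes of the list, were at 2179 ± 158 against 1757 ± 358 FPKM and at 874 ± 128 against 832 ± 33.3 FPKM (limma adjusted p = 0.29 and 0.85). The sign of the Krt17 difference turned under median-ratio scaling and without control replicate 2.

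**Figure D4:**
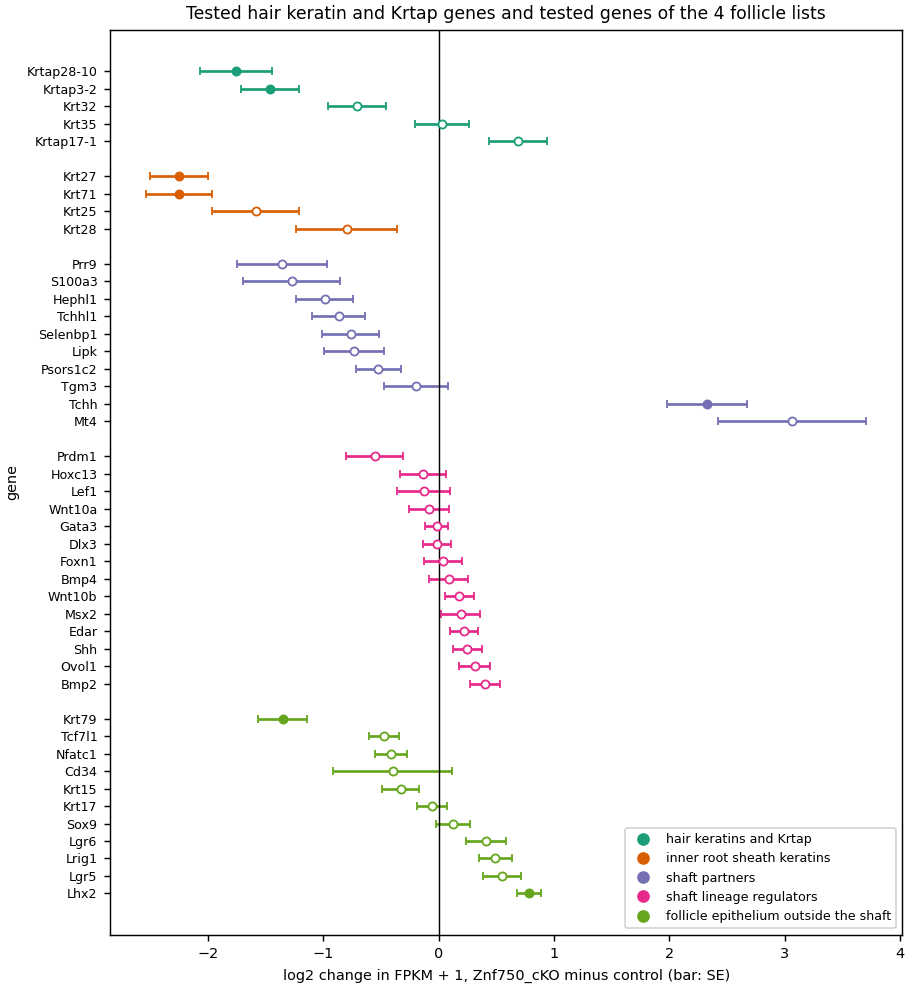
Change of log2(FPKM + 1), Znf750_cKO minus control, of each tested hair keratin and Krtap gene and of each tested gene of the 4 follicle lists (vertical axis, coloured by list). Points are limma estimates with their SE, filled where the adjusted p was under 0.05. Shaft lineage regulators are all open points with a median of 0.06, and among shaft partners Tchh and Mt4 lie apart from the rest on the high side.

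Some cell type markers moved with the groups. Among the 7 markers of the epidermis between follicles, Ivl, an early envelope protein, rose from 44.5 ± 16.8 to 152 ± 27 FPKM (limma adjusted p = 0.022, and 0.058 with the replicate block), and passed in 2 of the 6 leave-one-out fits (0.0041 to 0.086). The basal keratin Krt14 was higher in every Znf750_cKO library (5268 ± 303 against 6799 ± 677 FPKM, limma adjusted p = 0.14), and filaggrin, Flg, was lower in every one (1656 ± 565 against 903 ± 135 FPKM, adjusted p = 0.10). The summed level of the 7 markers overlapped between groups. Leukocyte markers summed to 78.02, 55.47 and 48.30 FPKM in control and 6.87, 7.34 and 9.86 in Znf750_cKO, and the 3 that were tested, of 5, fell. Cd74 and Tyrobp passed in each of the 6 leave-one-out fits and Ptprc in 3 (limma adjusted p of 0.030 to 0.085). Markers of fibroblasts and dermal papilla summed to 134.58 to 159.92 FPKM in control and 115.59 to 171.82 in Znf750_cKO, nearly all of it Dcn, while the defining collagen Col1a1 stayed at 0.21 to 0.59 FPKM and 0 of 4 tested changed. Melanocyte markers summed to 82.25 to 149.41 FPKM in control and 101.69 to 119.81 in Znf750_cKO, with 0 of 7 changed. The endothelial markers were nearly all Pecam1, at 5.46 to 31.06 FPKM with overlapping groups, while Cdh5 stayed at or below 0.04 FPKM. Skeletal muscle markers summed to 1.09, 1.00 and 0.54 FPKM in control and 0.17, 0.63 and 0.36 in Znf750_cKO, with Ckm lower in every Znf750_cKO library and none of the 3 tested. The part of epidermal cell state, of leukocytes, of muscle, or of the number of follicle cells carried over with the epidermis, in the Krtap and hair keratin values was not tested.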

How the data were processed

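Per the labels' protocols, poly(A) RNA was read as 100-nucleotide single reads. The authors deposited FPKM, as the file headers name it, with 1 value per gene and library. The submitters' processing notes list STAR 2.5.2a and RSEM 1.2.28, then Trim Galore 0.4.5 with cutadapt 1.15, the quality tools FastQC 0.11.8 and MultiQC 1.0, and also DESeq2. They name GRCm38 and mm10 as builds, with no roles. RSEM shares a read among all genes it fits, so near-identical Krtap and keratin genes are uncertain one by one, and strand is not stated.

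From these, log2(FPKM + 1) was fitted with limma 3.58.1 (trend and robust variances, statmod 1.5.0, R 4.3.3), with group as the only term, for the genes with at least 1 FPKM in at least 3 libraries. Changes are on that scale and understate those of low genes. "Rose" and "fell" mean a Benjamini-Hochberg adjusted p under 0.05 over all tested genes. The scripts were tested on simulated data, with changes planted only in genes of higher level. That test does not cover genes near 0, such as most Krtap genes. Sums over genes have no test. Errors are SDs over 3 libraries.

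The genes, the lists and the classes were chosen with earlier results of these data known. Named genes are Zfp750, the genes of the 70 that reached 1 FPKM in a library and, per list, the 2 most abundant and up to 2 called in each direction. Others are named for their values. Krtap groups go by family number. Symbols matched 55141 of 55487 identifiers, and gene positions are those of GENCODE M21. Promoter stretches follow the RefSeq starts, which among those shown differ from the GENCODE M21 start for Krtap3-3 and Krt32.

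Depth was estimated from the steps that whole reads leave in low values of genes with a single transcript. Between 63.8% and 75.8% of these lay within 0.1 read of a whole number. The depth was picked to fit these same values best, so the chance share of 20% holds only for a depth fixed beforehand. In a score of that fit the depths taken had 0.602 to 0.695, and the next best separate depths 0.456 to 0.618. Read numbers printed are estimates and entered no test.

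Libraries with the same replicate number deviated together from their group means (correlations of 0.31, 0.17 and 0.48, all above 0.1). The correlation of control replicate 1 with Znf750_cKO replicate 2 was 0.24, above that of the number 2 pair, and the other unlike pairs were negative. By the limit of 0.1 for like numbers, a fit with the number as a block was run. That pairing rests on the data alone, as the meaning of the numbers is not labelled. Pseudocounts of 0.1 and 0.5, no level filter, rescaling to a common sum or by median ratios, plain limma and leaving out libraries were also tried. Plots used Python 3.11.15 and matplotlib 3.10.9.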

Additional observations from a re-analysis of the deposited data

How the results depend on the processing

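The count of genes called, 577, was 283 without a level filter, 392 with the replicate block and 100 to 356 with 1 library left out, lowest without Znf750_cKO replicate 1. Of the 70 genes, 2 fell as reported, 1 without a level filter, 1 with the replicate block, 0 to 1 with 1 library left out, 1 without replicate 3 of both groups, and 9 without a level filter at a pseudocount of 0.1, nearly all of which entered through control alone. In all these settings 0 rose. The block ended the calls of Krtap28-10 and Ivl and of none of the other named genes that changed. The 19 genes at 0 in Znf750_cKO numbered 19 to 31 with 1 library left out and 33 without replicate 3 of both groups, and the 30 genes higher in every control library numbered 30 to 49 and 52, highest without control replicate 3 among single libraries. Here the smaller groups make both criteria easier to meet. As a share of control, the sums stayed at 48.2% to 61.2% for hair keratins and 19.8% to 31.2% for Krtap genes with 1 library left out, and the other 56 Krtap genes at 2.60% to 4.84%.

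With 1 library left out, log2 changes turned sign for Krt35 (-0.17 to 0.22, negative without control replicate 3 or Znf750_cKO replicate 2), Gata3 (-0.082 to 0.025, positive without control or Znf750_cKO replicate 3) and Krt17 (-0.17 to 0.040, positive without control replicate 2). Without replicate 3 of both groups Krt35 was at -0.15 and Gata3 at 0.066, and by median ratios Gata3 was at 0.088 and Krt17 at 0.047. The cause was not tested. Alternatives that leave out libraries for the counts of genes at 0 or without overlap, those for the 56 genes, and the fit without a filter at a pseudocount of 0.1 were chosen after seeing the data. Most Krtap genes rest on fewer than 100 reads per library, and a gene at 0 allows up to 3 reads.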
